A study of Homo sapiens with 9 samples.

Results

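The 10 genes described here are known for their expression in alveolar type II cells, the surfactant-making cells of the lung, and exclude SFTPC, the gene that was transfected. They are SFTPB, SFTPD, ABCA3, LPCAT1, NAPSA, CTSH, PGC, NKX2-1, HOPX and CLDN18. Every probe set whose platform annotation names only 1 of them was taken, which gave 20 of the 41091 probe sets with 1 gene name, for 10 of the 19775 genes so named. RNA came from HEK293 cells, a human line derived from embryonic kidney, on 9 Affymetrix arrays in 3 groups of 3. All groups were transiently transfected with a form of surfactant protein C. The control group (WT) received the wild-type protein, the second group (Ex4) a mutant lacking exon 4, and the third (LQ) the L188Q mutant. The promoter and vector, the time after transfection and the share of cells that took up the plasmid are not given in the sources used here. No untransfected culture was analysed here, so levels in all groups are those of cultures transfected with a form of surfactant protein C.

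Pulmonary surfactant is a film of phospholipid and protein that lowers surface tension in the alveolus. Type II cells assemble it in lamellar bodies, where ABCA3 loads lipid and where the proproteins of surfactant proteins B and C are trimmed by proteases that include napsin A, cathepsin H and pepsinogen C. Many of these genes are driven in lung by the homeodomain factor NKX2-1 together with FOXA factors. The line studied is not a lung cell, so the first question asked of these genes was how much signal their probe sets gave at all, and the second whether that signal differed between the mutant and wild-type proteins.

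The core of the NKX2 motif, CAAGTG, was searched on both strands of the RefSeq promoter windows of the members (250 bases before to 50 after each start, build GRCh38.p14), because NKX2-1 is itself a member. It was found in 4 of 15 windows, belonging to CLDN18, NAPSA and NKX2-1, and in 11.5% of all 35116 windows in the table. The core of the FOXA motif, TGTTTAC, was found in 2 of the 15 windows, belonging to CLDN18 and NKX2-1, and in 3.42% of all windows. No match of one core overlapped a match of the other. The matches are shown 5′ to 3′ in the direction of the gene with the core, or its reverse complement CACTTG or GTAAACA, in capitals. They show where the letters lie and say nothing of binding in these cells.
CLDN18 first start, NKX2 core, plus strand of chr3:137998819-137998846: attgcgctgtcCACTTGtcgtgtggctc
CLDN18 second start, NKX2 core, plus strand of chr3:138009996-138010023: cggagagcagaCAAGTGcctcttgggcc
NAPSA, NKX2 core, minus strand of chr19:50369253-50369271: caattcccctcCAAGTGca
NKX2-1, NKX2 core, minus strand of chr14:36519687-36519714: aaaaatcctgaCAAGTGaaacttaaagg
CLDN18 first start, FOXA core, plus strand of chr3:137998604-137998632: tccctcaaaagGTAAACAgtgagtagagt
NKX2-1, FOXA core, minus strand of chr14:36519669-36519697: aaacttaaaggTGTTTACcttgtcatcag
The stretches shown for NKX2-1 overlap at their flanks. The other 7 genes, SFTPB, SFTPD, ABCA3, LPCAT1, PGC, CTSH and HOPX, had neither core in these windows.

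In HEK293 cells the 20 probe sets of these alveolar type II genes lay on both sides of the middle of the array. Each value is a linear MAS5 intensity and was set against the median of all 54613 non-control probe sets on its own array. Of the 20 probe sets, 3 lay above that median on all 9 arrays, 1 each for LPCAT1, CTSH and SFTPB. A further 9 lay above it on some arrays, and 8 lay below it on every array. With each gene taken by its brightest probe set, 3 of 10 genes lay above it on all arrays, 6 on some and 1, SFTPD, on none. The share of all probe sets, or of all genes by their brightest probe set, above or below the median on every array was not counted. Of the 180 readings, 80 (44.4%) were above the median, namely 26 of 60 in WT, 26 of 60 in Ex4 and 28 of 60 in LQ. By its definition the median has as many of all readings above it as below it, so the members' 44.4% lay near the share of all readings. A probe set's brightness also depends on its probes, so levels are not compared between probe sets. The array medians themselves differed between groups, at 506.4 to 524.4 in WT, 316.1 to 434.3 in Ex4 and 303.9 to 371.8 in LQ. The deposited arrays nevertheless shared a trimmed mean (the mean without the extreme values), at 1493.3 to 1494.9. Probe sets under 100 made up 17.0% to 17.3% of WT arrays, 20.8% to 27.2% of Ex4 and 23.8% to 27.7% of LQ. Levels are therefore read both as deposited and over the array median, and which scale is the better one was not tested. The plot of changes gives every tested member's change on both scales.

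**Figure D1:**
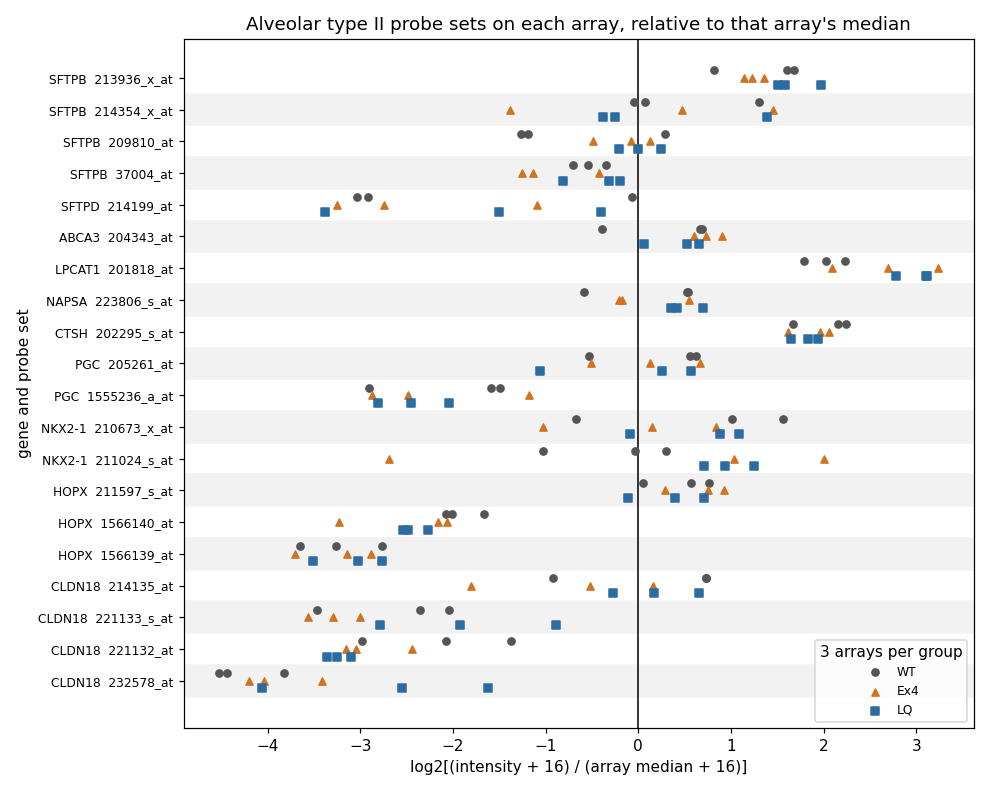
Level of each of the 20 probe sets on each array, as log2 of intensity over the array median with 16 added to both (horizontal axis), by gene and probe set (vertical axis). Points are single arrays, 3 per group. LPCAT1, CTSH and the first SFTPB probe set lie right of the line at 0 on all 9 arrays, while 8 probe sets lie left of it on every array.

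Surfactant protein B, which is needed to form and spread the surfactant film, has 4 probe sets here and they did not give one level. The brightest, 213936_x_at, read 1623.0, 1654.0 and 912.0 on WT replicates 1, 2 and 3, then 1138.6, 716.9 and 825.7 on Ex4 and 1500.0, 995.6 and 939.2 on LQ. The 3 groups overlapped, and every array lay between percentiles 63.2 and 74.8 of its own values. In Affymetrix naming the ending x_at marks a probe set whose probes can also pair with other transcripts, and how much of this signal is from SFTPB was not tested. The second, 214354_x_at, read 1313.5, 490.0 and 534.8 on WT, 1217.6, 443.9 and 122.1 on Ex4, and 997.8, 284.1 and 229.8 on LQ. Replicate 1 was the highest array in every group, and the range was 10.8-fold over the 9 arrays.

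The other SFTPB probe sets lay around or under the median. Probe set 209810_at read 221.0, 200.3 and 627.1 on WT, 476.7, 220.1 and 322.3 on Ex4, and 318.5, 338.8 and 365.2 on LQ. Its highest and lowest readings were both WT arrays. Probe set 37004_at was below the median on all 9 arrays, with 356.9, 305.5 and 395.8 on WT, 321.5, 123.5 and 146.3 on Ex4, and 205.9, 268.6 and 262.0 on LQ. On it the LQ arrays all lay below the WT arrays as deposited, as for 24.2% of all tested probe sets, and they overlapped once divided by the array median. The highest reading fell on WT replicate 2 for the first SFTPB probe set, on WT replicate 1 for the second and on WT replicate 3 for the others, so the 4 do not order the arrays alike. Surfactant protein D, a collectin of lung host defence, has 1 probe set, which was below the median on every array and too dim to be tested. It read 49.8, 481.6 and 53.2 on WT, 195.9, 18.8 and 37.8 on Ex4, and 120.8, 253.1 and 14.7 on LQ. The groups overlapped within a 32.8-fold range.

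**Figure D2:**
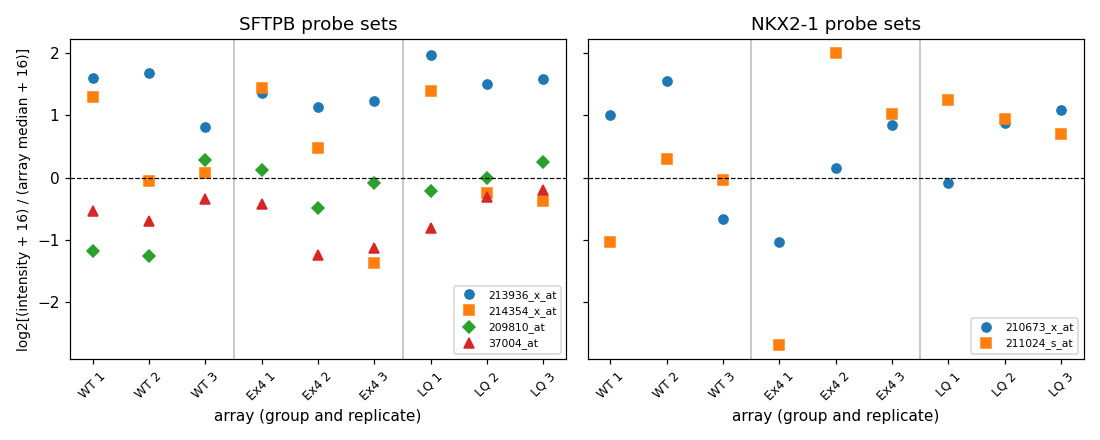
Level of the 4 SFTPB probe sets (left) and the 2 NKX2-1 probe sets (right) on each array, as log2 of intensity over the array median with 16 added to both; the dashed line is the array median. Points are single arrays. Probe sets of one gene lie apart on most arrays and differ in which arrays are high; the lowest point is NKX2-1 211024_s_at on Ex4 replicate 1, which read 54.0 on an array with a median of 434.3.

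Among the genes of surfactant lipid, LPCAT1, an acyltransferase that remodels phosphatidylcholine, was above the median on every array. Its probe set read 2525.2, 2122.6 and 1797.0 on WT, 1904.1, 3098.6 and 2314.8 on Ex4, and 3325.2, 2422.7 and 2763.6 on LQ. As deposited the LQ arrays overlapped WT by 1 array, LQ replicate 2 lying under WT replicate 1. Over the array median the log2 level of the WT arrays was 2.02 ± 0.22, that of Ex4 2.67 ± 0.57 and that of LQ 3.0 ± 0.19 (SD, n = 3). On that scale all LQ arrays lay above all WT arrays, as they did for 40.5% of all tested probe sets. ABCA3, the lipid transporter of the lamellar body membrane, read 856.0, 816.7 and 384.7 on WT, 730.7, 603.5 and 526.7 on Ex4, and 544.6, 355.1 and 486.3 on LQ. It was above the median on 8 arrays, all but WT replicate 3, and the groups overlapped.

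Of the proteases, CTSH, encoding cathepsin H, was above the median on every array. It read 1698.0, 2446.3 and 2336.5 on WT, 1368.1, 1276.8 and 1478.7 on Ex4, and 1197.8, 1252.9 and 1210.0 on LQ. Every array of both mutants lay below every WT array, with a WT mean of 2160.3 ± 404.1 against 1374.5 ± 101.1 for Ex4 and 1220.2 ± 28.9 for LQ (SD, n = 3). As deposited, 15.0% of all tested probe sets lay wholly below WT in Ex4 and 24.2% in LQ. The coefficient of variation of CTSH was 18.7% in WT and 2.37% in LQ, so most of the spread lay in WT. Over the array median the log2 levels were 2.02 ± 0.31, 1.88 ± 0.23 and 1.81 ± 0.15 and the groups overlapped. In these bulk samples fewer cells with a transcript and less of it per cell cannot be told apart.

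The aspartic proteases lay close to the median. NAPSA, encoding napsin A, read 343.8, 742.8 and 740.6 on WT, 373.9, 470.4 and 301.3 on Ex4, and 502.5, 561.5 and 392.5 on LQ, with 6 arrays above the median. PGC, encoding pepsinogen C, read 359.2, 753.3 and 793.2 on WT, 475.2, 510.6 and 236.0 on Ex4, and 558.7, 410.4 and 137.5 on LQ with its brighter probe set. That probe set was also above the median on 6 arrays, and in both genes WT replicate 1 was the lowest WT array. The other PGC probe set, 1555236_a_at, was below the median everywhere at 29.6 to 177.0.

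NKX2-1, the master regulator of lung and thyroid epithelium, gave discordant probe sets. With 210673_x_at it read 1075.1, 1524.6 and 313.2 on WT, 204.2, 353.1 and 626.9 on Ex4, and 348.8, 638.8 and 666.1 on LQ. With 211024_s_at it read 247.8, 625.8 and 496.1 on WT, 54.0, 1314.0 and 717.3 on Ex4, and 908.0, 667.1 and 508.3 on LQ. Each was above the median on 6 arrays, with ranges of 7.47-fold and 24.3-fold. On the second the LQ arrays all lay above WT once divided by the median, as for 40.5% of all tested probe sets. On the first they overlapped, so the probe sets give no single level of NKX2-1. HOPX, an atypical homeodomain protein better known from type I cells, read 541.7, 761.7 and 874.4 on WT, 534.4, 541.7 and 661.5 on Ex4, and 496.9, 314.7 and 508.4 on LQ with its brightest probe set. LQ lay below WT as deposited, as for 24.2% of all tested probe sets, and the groups overlapped over the median. The dim HOPX probe sets stayed below the median. Probe set 1566140_at read 111.9 to 149.1 in WT, 19.5 to 91.2 in Ex4 and 41.0 to 58.0 in LQ, and 1566139_at 15.2 to 60.4 over all arrays. On 1566140_at all LQ arrays lay below WT on both scales, and all Ex4 arrays did so only as deposited. Both were too dim to be tested.

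Claudin 18, a tight junction protein of alveolar and gastric epithelium, was read by 4 probe sets, of which 3 were below the median on every array. The fourth, 214135_at, read 877.6, 849.0 and 261.5 on WT, 112.7, 355.6 and 234.1 on Ex4, and 419.0, 547.2 and 248.7 on LQ. WT replicate 3 lay among the mutant arrays and the other WT arrays above all of them. The dim probe sets read 20.4 to 192.6 (221133_s_at), 15.2 to 186.8 (221132_at) and 3.5 to 88.4 (232578_at). On 221132_at the LQ arrays were all below WT on both scales, at 29.2, 21.4 and 15.2 against 52.6, 186.8 and 108.2. HOPX 1566140_at was the other member probe set with that pattern. On 221133_s_at the Ex4 arrays were all below WT only as deposited. All of these were too dim to be tested, and the share of dim probe sets with such patterns was not counted.

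Ex4 against WT asked which transcripts differ with the exon deletion. None of the 13 member probe sets bright enough to be tested (mean log2 at or above percentile 40 of the table) passed an adjusted p of 0.05 in limma, fitted on 32768 probe sets with Benjamini-Hochberg adjustment. Of all tested probe sets 0.0122% passed. Unadjusted, 2 of the 13 members had a limma p under 0.05, CLDN18 and CTSH, both lower. So did 8150 of all 32768 tested probe sets, so such a p was common. CLDN18 had a log2 change of -1.39 ± 0.56 (SE, limma adjusted p = 0.16, 95% interval -2.61 to -0.16) on 214135_at. CTSH had -0.63 ± 0.21 (adjusted p = 0.11, -1.09 to -0.17), or 1.55-fold lower. With median-centred arrays CLDN18 had -0.90 (adjusted p = 0.29) and CTSH -0.14 (adjusted p = 0.73). CTSH passed at 0.033 when WT replicate 1 was left out, a fit in which 11.2% of all tested probe sets passed. The NKX2-1 probe set 210673_x_at had -1.13 ± 0.57 (adjusted p = 0.24), and the other had -0.11 ± 0.84 (adjusted p = 0.95, -1.95 to 1.72), an interval that holds more than a 2-fold change either way.

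None of the remaining Ex4 changes passed, and their errors were wide. On SFTPB they were -0.61 ± 0.31, -0.75 ± 0.75, 0.09 ± 0.50 and -0.90 ± 0.49 (SE, limma adjusted p = 0.24, 0.56, 0.93 and 0.27) from the brightest probe set to 37004_at. ABCA3 had -0.07 ± 0.37 (adjusted p = 0.92) and LPCAT1 0.17 ± 0.23 (adjusted p = 0.68, -0.33 to 0.67). NAPSA had -0.59 ± 0.39 and PGC -0.61 ± 0.54 (adjusted p = 0.36 and 0.50), and HOPX -0.30 ± 0.33 (adjusted p = 0.60). In all, 11 of 13 changes were negative with a median of -0.61, against a median of -0.12 and 40.9% positive over all tested probe sets. After median centring 8 of 13 were negative, since ABCA3 (0.42), HOPX (0.19) and the NKX2-1 probe set 211024_s_at (0.37) changed sign, with a median of -0.12 against 0.37 over all probe sets, and again none passed while 15.6% of all probe sets did. CTSH was the 1 tested member whose Ex4 arrays lay wholly below WT as deposited, a pattern of 15.0% of tested probe sets, and no member lay wholly above, where 7.48% did. Over the median no member lay wholly below or above, where 4.16% and 26.3% of all tested probe sets did.

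With the L188Q substitution, LQ against WT, 1 member fell. CTSH was 1.74-fold lower, with a log2 change of -0.80 ± 0.21 (SE, limma adjusted p = 0.046, 95% interval -1.26 to -0.34). It was 1 of 13 tested member probe sets, where 6.81% of all tested probe sets passed, 3.09% as higher and 3.72% as lower. The call was lost under several other settings. After quantile normalization, where 3.52% of all probe sets passed, the change was -0.69 (adjusted p = 0.099) and for median-centred arrays -0.22 (adjusted p = 0.56), and leaving out each array in turn kept it in 2 of 9 fits, with adjusted p from 0.014 to 0.14. The fits without WT replicate 1 and without Ex4 replicate 1 passed. It was also lost with no filter on dim probe sets (adjusted p = 0.062), no variance trend (0.064) and a replicate block (0.053).

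LPCAT1 gave the opposite case. As deposited its LQ change was 0.40 ± 0.23 (SE, limma adjusted p = 0.27, -0.10 to 0.90), and with median-centred arrays it was 0.98 ± 0.29 (adjusted p = 0.023, 0.37 to 1.59). On that scale 25.8% of all tested probe sets passed, 24.2% as higher, and the median change over all was 0.44, so a higher value there was common. With quantile normalization the LPCAT1 change was 0.42 (adjusted p = 0.29). Both genes are therefore reported with the scale on which they were called.

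**Figure D3:**
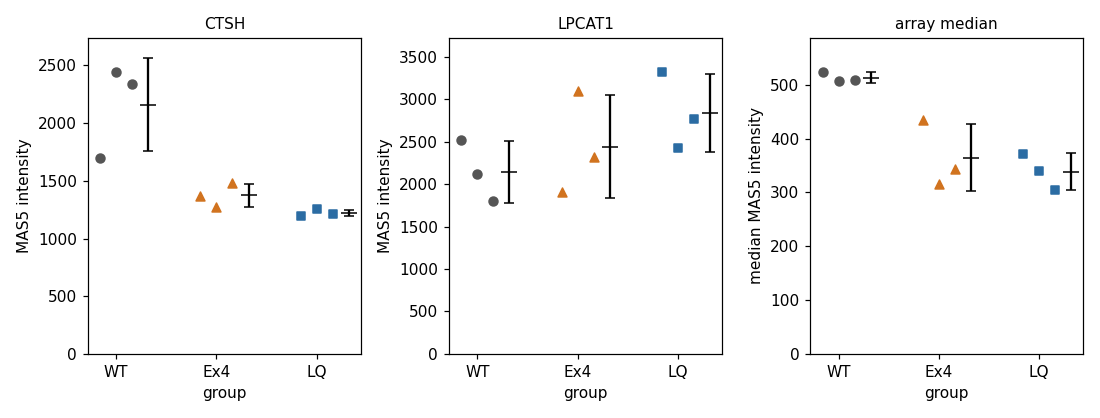
MAS5 intensity of CTSH and LPCAT1 and the median intensity of each array (vertical axes, linear, from 0) in WT, Ex4 and LQ. Points are arrays, and bars show the mean and SD of 3. CTSH and the array median are both lower in every mutant array than in every WT array, whereas LPCAT1 overlaps between all groups.

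For the other members the LQ intervals all included 0. HOPX had -0.71 ± 0.33 (SE, limma adjusted p = 0.18, 95% interval -1.42 to 0.01) and PGC -0.88 ± 0.54 (adjusted p = 0.30, -2.05 to 0.29). On SFTPB the changes were -0.26 ± 0.31, -0.77 ± 0.75, 0.15 ± 0.50 and -0.50 ± 0.49 (adjusted p = 0.60, 0.52, 0.86 and 0.52). ABCA3 had -0.49 ± 0.37, NAPSA -0.25 ± 0.39 and CLDN18 -0.58 ± 0.56 (adjusted p = 0.39, 0.69 and 0.52). The NKX2-1 probe sets had opposite signs, -0.59 ± 0.57 and 0.64 ± 0.84 (adjusted p = 0.51 and 0.64). Of the 13 changes 10 were negative, with a median of -0.50 against -0.15 over all probe sets, and after median centring 5 were negative, with a median of 0.09 against 0.44. Those that changed sign were SFTPB 213936_x_at (0.32) and 37004_at (0.09), ABCA3 (0.09), NAPSA (0.33) and CLDN18 (0.01). As deposited the LQ arrays lay wholly below WT on 3 of 13 (SFTPB 37004_at, HOPX 211597_s_at and CTSH), where 24.2% of all tested probe sets did so, and wholly above on none, where 13.1% did. Over the median they lay wholly above WT on 2 of 13 (LPCAT1 and NKX2-1 211024_s_at), where 40.5% of all did so, and wholly below on none, where 6.3% did.

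**Figure D4:**
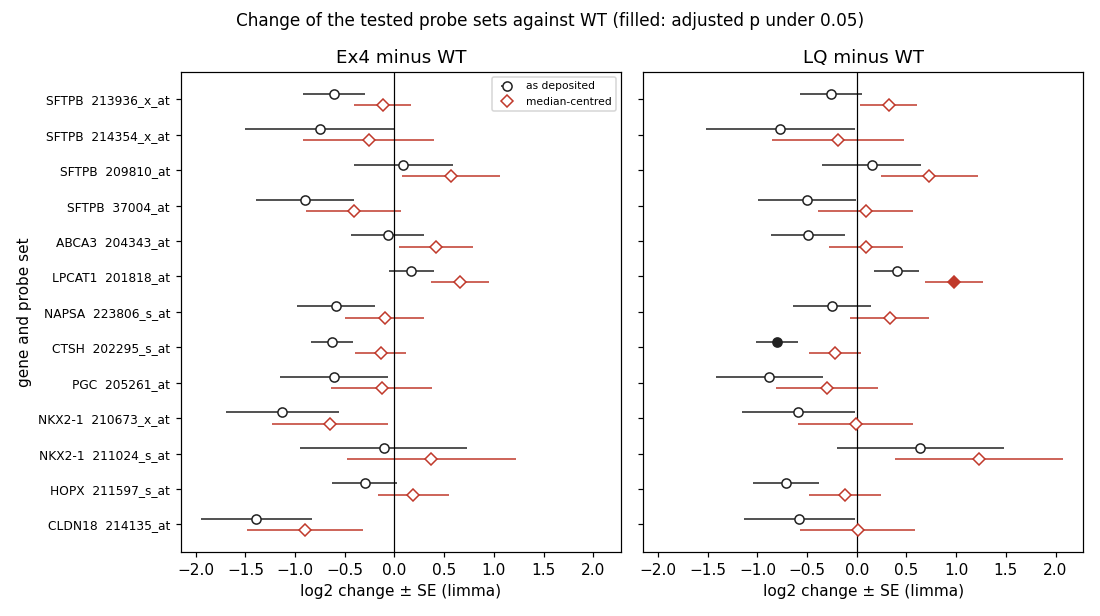
log2 change ± SE from limma for the 13 tested probe sets, Ex4 minus WT (left) and LQ minus WT (right), on deposited intensities (circles) and after median centring (diamonds). Filled symbols passed an adjusted p of 0.05: CTSH in LQ as deposited and LPCAT1 in LQ after centring.

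The mutants were also set against each other, LQ minus Ex4, the test of whether they differ. No member passed, all adjusted p-values were 1.0 in limma, none had an unadjusted p under 0.05, and 0.0061% of all tested probe sets passed. Of all 32768 tested probe sets, 1345 had an unadjusted limma p under 0.05 here. CTSH differed by -0.17 ± 0.21 (SE, 95% interval -0.63 to 0.30) and LPCAT1 by 0.23 ± 0.23 (-0.27 to 0.73). The largest was CLDN18 at 0.81 on 214135_at. So the call of CTSH in LQ and its absence in Ex4 are not a shown difference between the mutants. Both mutants were compared with the same WT arrays.

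Other measures of the arrays were set beside the lower CTSH of the mutants. Like the array median, the summed fibroblast and blood markers were lower on every mutant array than on every WT array. The other measures below, apart from COL1A1 and CD79A taken alone, overlapped WT in at least 1 mutant. The ratio of 3′ to 5′ GAPDH signal, which reflects RNA integrity, ran from 1.21 to 1.43 on the WT arrays, from 0.96 to 1.22 on Ex4 and from 1.06 to 1.09 on LQ. The 8 marker genes of HEK293 were all above the array median on all 9 arrays, with a summed intensity of 139591.4 to 182426.9 in WT, 131981.8 to 138397.9 in Ex4 and 136506.1 to 150156.0 in LQ. Of 7 airway markers with a probe set none was above the median on all arrays and 5 on none, including the secretoglobins SCGB1A1, SCGB3A1 and SCGB3A2, with sums of 637.0 to 1760.1, 513.1 to 1112.8 and 723.0 to 1058.9. Of 8 type I markers 4 were above on all arrays, with sums of 17090.9 to 25230.1, 16052.5 to 19937.2 and 14836.8 to 17821.1. Fibroblast markers summed to 6897.7 to 8290.6, 4767.9 to 6043.9 and 3343.9 to 4550.5, with 1 of 7 above the median on all arrays and COL3A1, LUM, PDGFRA and PDGFRB on none. That 1 was COL1A1, which gave most of the sum, at 5285.9 to 6163.9 in WT, 3296.2 to 5086.3 in Ex4 and 2564.4 to 3560.0 in LQ. Blood markers summed to 2415.4 to 3154.4, 1607.7 to 1761.1 and 1331.2 to 1632.5, with 1 of 6 above on all arrays and PTPRC and LYZ on none. That 1 was CD79A, the largest part of the sum, at 1081.1 to 1214.8 in WT, 526.0 to 897.4 in Ex4 and 683.6 to 747.0 in LQ. The 10 alveolar genes together, CTSH among them, summed to 8466.3 to 12152.6, 7037.8 to 7946.0 and 7367.0 to 9014.3. The part of array median, RNA integrity or these markers in the CTSH result was not tested. Of the 12 type II markers with a probe set, SFTPB, LPCAT1, CTSH and LAMP3 were above the median on all arrays, and SFTPD was above on none. For none of these marker counts was the share over all genes counted.

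Genes that work with the members were counted from lists, with each gene represented by its brightest probe set. Of 15 other type II markers 13 had a probe set of their own and 9 were tested. None passed in either mutant, where 0.0% of 14018 genes passed in Ex4 and 7.32% in LQ, and the median log2 change was -0.13 in Ex4 and -0.37 in LQ against -0.08 and -0.09 over all genes. The brightest were ETV5, an ETS factor of type II cells, with -0.61 and -0.37 (limma adjusted p = 0.38 and 0.58), and LAMP3, a lamellar body membrane protein, with 0.44 and 0.48 (adjusted p = 0.44 and 0.37). LAMP3 passed in LQ with median-centred arrays, at 1.06 (adjusted p = 0.049), as did MFSD2A, a scale on which 30.2% of all genes passed. MFSD2A was also called higher in Ex4 on that scale, where 19.3% of all genes passed.

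Of 20 genes of surfactant lipid synthesis and lamellar bodies, 19 had a probe set of their own and 18 were tested. Of the 19, 16 were above the median on all arrays, and the share of all genes that were so was not counted. In LQ 1 of 18 rose where 7.32% of all genes passed, namely GPAM, which catalyses the first step of glycerolipid synthesis, from 1051.3 to 1469.2 in WT to between 2168.9 and 2502.2, a log2 change of 0.93 ± 0.24 (SE, limma adjusted p = 0.042). It passed after quantile normalization and with median-centred arrays too, at 1.51 (adjusted p = 0.0048), and in 4 of 9 fits that left out an array: those without WT replicate 1 or without any 1 Ex4 array. In Ex4 GPAM read 1896.1 to 3150.9 with 1.09 (adjusted p = 0.077), and none of the list passed. It passed in Ex4 after median centring (1.58, adjusted p = 0.013) and in 2 of 9 fits that left out an array, those without WT replicate 1 and without Ex4 replicate 1. After centring 6 of the 18 were higher in LQ (ATP8A1, FABP5, FASN, GPAM, LPIN1 and PCYT1A) where 30.2% of all genes passed, and FABP5 and GPAM in Ex4 where 19.3% did. The list's median as deposited was 0.05 in Ex4 and 0.09 in LQ, against -0.08 and -0.09 over all genes. After centring it was 0.54 and 0.67, against 0.41 and 0.49 over all genes. ACLY, which supplies acetyl-CoA, had -0.31 and -0.42 (adjusted p = 0.24 and 0.11), and PRDX6, a peroxidase with phospholipase activity, had 0.05 and 0.01 (adjusted p = 0.92 and 0.99).

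Of 16 proteases and saposin genes related to CTSH, NAPSA and SFTPB, 14 were tested and 2 fell in LQ, where 7.32% of all genes passed. CTSC, cathepsin C, had -0.70 ± 0.18 (SE, limma adjusted p = 0.044), with 3161.8 to 4544.4 in WT and 2245.0 to 2545.9 in LQ. BACE2, an aspartic protease, had -0.77 ± 0.20 (adjusted p = 0.042), with 3761.2 to 5164.2 in WT and 2271.1 to 3008.6 in LQ. Like CTSH, neither passed with median-centred arrays, at -0.12 and -0.18 (adjusted p = 0.74 and 0.63), while both passed after quantile normalization. CTSC passed in 1 of 9 fits that left out an array (without Ex4 replicate 1), and BACE2 in 4 (without WT replicate 1 or any 1 Ex4 array). In Ex4 the changes were -0.24 and -0.54 (adjusted p = 0.42 and 0.13). The list's median as deposited was -0.47 in Ex4 and -0.71 in LQ, against -0.08 and -0.09 over all genes. After centring it was 0.02 and -0.13, against 0.41 and 0.49 over all genes, so the list stayed below all genes on both scales. PSAP, the saposin precursor, had 0.59 and 0.34 (adjusted p = 0.28 and 0.52), and CTSL, cathepsin L, had -0.57 and -0.75 (adjusted p = 0.17 and 0.071).

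Of 20 lung epithelial transcription factors, 16 were above the median on all arrays, a count for which the share over all genes was not taken. Of the list 19 were tested and 1 fell in LQ, where 7.32% of all genes passed. ELF3, an epithelial ETS factor, read 1208.9 to 1225.8 in WT, 448.6 to 853.5 in Ex4 and 571.9, 162.7 and 101.0 on the LQ arrays. Its LQ change was -2.42 ± 0.51 (SE, limma adjusted p = 0.029), and -1.83 with median-centred arrays (adjusted p = 0.011). It passed in 5 of 9 fits that left out an array, namely those without WT replicate 1, any 1 Ex4 array or LQ replicate 1, and the change ran from -3.09 to -1.93. In Ex4 it was -0.85 (adjusted p = 0.32). The list's median as deposited was -0.12 in Ex4 and -0.30 in LQ, against -0.08 and -0.09 over all genes. After centring it was 0.37 and 0.28, against 0.41 and 0.49. CEBPB had 0.32 and 0.36 (adjusted p = 0.34 and 0.25) and ID2 0.79 and 0.90 (adjusted p = 0.23 and 0.15), and both passed in LQ after centring (adjusted p = 0.019 and 0.029). On that scale 5 factors were higher in LQ (CEBPB, FOXP2, ID2, TEAD1 and WWTR1) and ELF3 lower, where 30.2% of all genes passed, and 3 were higher in Ex4 (FOXP2, TEAD1 and WWTR1), where 19.3% did. Among markers, PAX2, a kidney transcription factor, fell in LQ by 2.04 on the log2 scale (adjusted p = 0.025), as did COL1A1, a fibrillar collagen, by 0.96 (adjusted p = 0.028). In LQ both passed in 4 of 9 fits that left out an array, those without WT replicate 1 or any 1 Ex4 array. In Ex4 PAX2 had -1.82 (adjusted p = 0.077), which passed after median centring (-1.33, adjusted p = 0.024) and without WT replicate 1 or Ex4 replicate 1, and COL1A1 had -0.52 (adjusted p = 0.14). In LQ PAX2 passed with median-centred arrays too, at -1.46 (adjusted p = 0.0097), and COL1A1 did not, at -0.38 (adjusted p = 0.30). INA, another HEK293 marker, passed in LQ as higher on that scale.

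The genes whose level over the array median followed the 3 members above the median on all arrays most closely over the 9 arrays were taken from 14017 genes. Closest to CTSH were BTD, BPNT1 and GLUD1, with Pearson's r of 0.965, 0.95 and 0.938, and 12 genes had an r over 0.9. LPCAT1 was followed by UCKL1, LBR and CXorf38 at 0.984, 0.981 and 0.978, and 842 genes had an r over 0.9. For the first SFTPB probe set they were LOC100505915, RAB39A and LINC00824 at 0.929, 0.918 and 0.907, and no others passed 0.9. These are descriptions over 9 arrays in 3 groups that share each array's median, so a gene that follows the groups as a whole scores high.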

How the data were processed

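HEK293 RNA was measured on 9 arrays, 3 per group. The deposited values are linear intensities, made by the authors with MAS5 (per the submitters' processing notes, which name no version). Detection calls were not used. Precision is limited by the number of arrays. Whether the replicates were separate cultures is not stated, so p-values reflect only the spread among these arrays, possibly a technical one.

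The table holds 54675 probe sets, of which 62 are controls. Of the other 54613, 41091 carried 1 gene symbol, 1801 several and 11721 none, and only the first were named, with symbols updated through a RefSeq table (54 kept the annotation's). Promoters and motif matches come from RefSeq, build GRCh38.p14, and all 10 genes matched. No probe sequence or protein was used here.

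Values were taken as log2(intensity + 16), which understates the change where signal is dim. Those with a mean under percentile 40 (log2 7.89) were left out. One limma model (3.58.1, R 4.3.3) with a variance trend was fitted to 9 arrays and 32768 probe sets, two-sided, with Benjamini-Hochberg adjustment over all of them per contrast and a threshold of 0.05. For lists a gene was its brightest probe set (14018 genes). Of the members, 13 of 20 probe sets and 9 of 10 genes were tested. A planned exact permutation test was not used; the median-centred fit stands for it.

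The members and lists were chosen with earlier results of these data known. The text names all members, from each list the genes past the threshold (at most 4) and for pathway lists the 2 brightest, and the 3 genes closest to each member above the median on all arrays. In simulated data with 100 probe sets changed 2-fold and 100 changed 4-fold, the model recovered 15% and 64% for Ex4 with 4 false calls, and 13% and 69% for LQ with 7. The simulation drew independent noise for each probe set and held no shift of the array median between groups, unlike the real arrays. Its false calls therefore do not cover such a shift. Arrays correlated at 0.842 to 0.959 and no 2 were identical.

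Alternatives were pseudocounts of 1 and 64, quantile normalization, median centring, no filter, percentile 60, a fit with no variance trend, one with only the arrays compared, a replicate block, array weights, averaging the probe sets of a gene, and each array left out in turn. Those for list genes, and leaving out arrays for the count above the median, were added after seeing the data.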

Additional observations from a re-analysis of the deposited data

How the results depend on the processing

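Of 711 values of the 39 member changes under other settings, 654 kept direction and side of the threshold, 41 reversed (19 of them on leaving out an array), 12 lost and 4 gained the threshold. For Ex4 against WT the count of member genes called was 0, and 0 to 1 leaving out an array. It was 1 with array weights (CTSH, -0.71 at limma adjusted p = 0.038), a setting in which 2566 of all 14018 genes passed. For LQ it was 1. It became 0 with quantile normalization, no filter (CTSH limma adjusted p = 0.062), no variance trend (0.064) and the replicate block (0.053). With median centring it was 1 but then LPCAT1, and it ran from 0 to 1 leaving out an array. Array weights gave 2 (CTSH and HOPX, lower), where 4006 of all 14018 genes passed. Between the mutants it was 0 throughout, and the 3 probe sets above the median on all arrays stayed at 3 with pseudocounts of 1 and 64. Leaving out an array gave 3 to 4, adding ABCA3 without WT replicate 3 and HOPX without LQ replicate 2. The cause of each change of call was not tested.

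Whether replicate numbers pair the samples is not stated and was not settled here, and the main fit did not pair them. Correlations of deviations between same-numbered arrays ran from -0.083 to 0.191, with 4 of 9 over 0.1. Among the arrays of other groups, 7 of the 9 arrays correlated best with one of their own number. With the replicate block the CTSH call in LQ was lost. CTSC in LQ also missed the threshold (limma adjusted p = 0.05 after rounding), and CTSL passed (0.036).

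Array weights reversed SFTPB 209810_at (-0.39 in Ex4, -0.21 in LQ), ABCA3 in Ex4 (0.13), NKX2-1 211024_s_at in Ex4 (0.32), SFTPB 214354_x_at between mutants (0.36) and PRDX6 in LQ (-0.14). A pseudocount of 64 reversed NKX2-1 211024_s_at in Ex4 (0.03). Quantile normalization reversed ABCA3 (0.35 in Ex4, 0.01 in LQ), NKX2-1 211024_s_at (0.27) and HOPX (0.10) in Ex4, SFTPB 37004_at (0.12) and NAPSA (0.28) in LQ, SFTPB 214354_x_at between mutants (0.05) and PRDX6 (-0.02 in Ex4, -0.07 in LQ). Median centring reversed ABCA3 (0.42 in Ex4, 0.09 in LQ), NKX2-1 211024_s_at (0.37), HOPX (0.19) and CTSC (0.24) in Ex4, SFTPB 213936_x_at (0.32), SFTPB 37004_at (0.09), CLDN18 (0.01), NAPSA (0.33) and ETV5 (0.21) in LQ, ACLY (0.18 in Ex4, 0.17 in LQ) and SFTPB 214354_x_at between mutants (0.07).

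Leaving out each array, changes that crossed 0 ran in Ex4 from -0.43 to 0.13 (ABCA3), -0.02 to 0.33 (LPCAT1), -0.97 to 1.16 (NKX2-1 211024_s_at), -0.20 to 0.59 (SFTPB 209810_at), -1.51 to 0.07 (SFTPB 214354_x_at) and -0.25 to 0.27 (PRDX6). In LQ they ran from -0.13 to 0.65 (SFTPB 209810_at), -0.30 to 0.22 (PRDX6) and -0.07 to 0.61 (PSAP). Between mutants they ran from -0.51 to 1.61 (NKX2-1 211024_s_at), -0.65 to 0.30 (PGC), -0.20 to 0.33 (SFTPB 209810_at) and -0.84 to 0.74 (SFTPB 214354_x_at).

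Over all probe sets 4 were called in Ex4 and 2231 in LQ (1011 higher, 1220 lower). Outside leave-one-out fits these became 10 and 1154 (669 higher, 485 lower) with quantile normalization, 5106 and 8452 (7934 higher, 518 lower) with median centring and 5287 and 8580 with array weights. In LQ they became 442 without the variance trend (116 higher, 326 lower) and 4128 with only the arrays compared, where Ex4 had 2. Leaving out an array gave 2 to 4409 in Ex4 and 8 to 4985 in LQ.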
